A study of Mus musculus with 106 samples.

Results

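Interscapular brown fat (iBAT) and inguinal subcutaneous white fat (ingSAT) of mice kept at 10 °C were compared across all genes, to see which differences between a brown and a white depot were still present after the white depot had been exposed to cold. The members were the 3 iBAT and 3 ingSAT libraries at 10 °C, 6 of the 106 libraries of the series, and the 21647 genes of the count table that holds them. The 3 iBAT and 3 ingSAT libraries of the controls at 22 °C served as the background depot difference. All groups were wild-type male C57BL/6J mice, 8 weeks old at the start and 11 weeks old by their labels, and no transgene or agent is named for any of them. The cold mice spent 5 days each at 18 °C and 14 °C and then 2 weeks at 10 °C, and the controls stayed at 22 °C. Each group came from 6 mice, and each library held RNA pooled from 2 mice, so the spread between libraries was that between pools and not between single animals.

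Brown adipocytes burn lipid for heat: uncoupling protein 1 (UCP1) in their inner mitochondrial membrane lets protons flow back without making ATP, and noradrenaline from sympathetic nerves drives the process through β-adrenergic receptors, cyclic AMP and lipolysis. White adipocytes store triglyceride and release hormones such as leptin. In the cold, inguinal fat gains multilocular UCP1-positive cells, called beige or brite cells, and this conversion is known as browning. Transcription factors that pattern the body axis, among them the Hox and Zic genes, keep depot-specific levels in adult fat.

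Total counts ran from 16381720 to 20447107 per iBAT library and from 12949322 to 13363472 per ingSAT library at 10 °C, and from 10960682 to 23222905 over the 6 libraries at 22 °C. Adipocyte markers were abundant in every library, and the 9 brown adipocyte markers summed to 16447, 20969 and 18111 CPM (counts scaled to a common library total) in iBAT against 2143, 2691 and 2242 CPM in ingSAT at 10 °C. Some libraries also held markers of other tissues. The 12 fast skeletal muscle markers summed to 6088, 6565 and 3253 CPM in iBAT replicates 1 to 3 and to 1308, 27.7 and 1782 CPM in ingSAT replicates 1 to 3. The 9 B cell markers with counts reached 22.7, 662 and 430 CPM in ingSAT against 7.90 to 9.76 CPM in iBAT, and the 10 T cell markers reached 14, 241 and 107 CPM against 3.21 to 3.76 CPM. A list of 13 ileum genes stood at 382 CPM in ingSAT replicate 1 and at 9.0 and 11.2 CPM in the other ingSAT libraries, and a list of 6 epididymis genes at 55.1 CPM in iBAT replicate 3 against 6.57 and 6.92 CPM in the other iBAT libraries and 0 in all ingSAT libraries. These last lists, like the slow muscle list below, were written after the values had been seen. Inguinal fat surrounds a lymph node and interscapular brown fat lies on muscle, but the part of such tissue in any result was not tested.

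**Figure D1:**
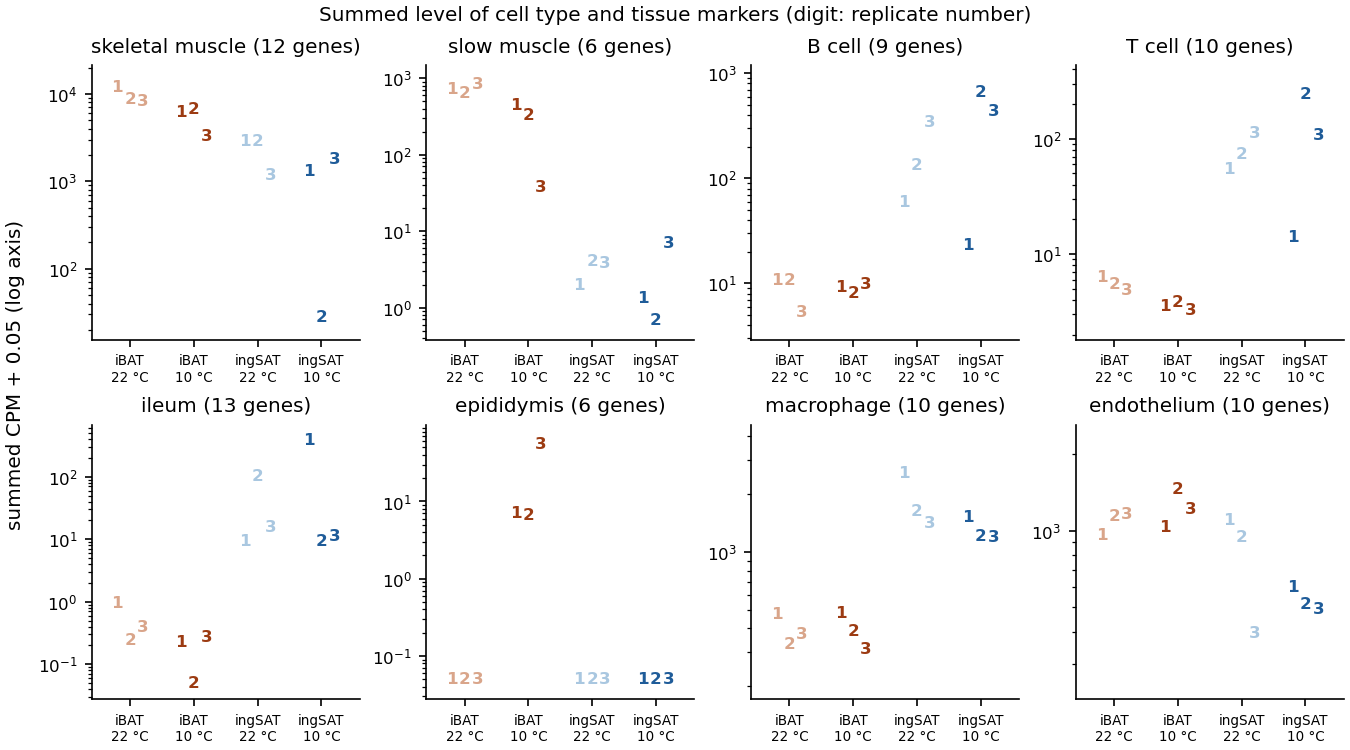
Summed CPM of 8 cell type and tissue marker lists (panels, log axis, 0.05 added) in the 12 libraries, by depot and temperature, each digit being the replicate number of a library. In ingSAT at 10 °C replicate 2 is lowest for skeletal muscle (27.7 CPM) and replicate 1 lowest for B and T cells and highest for ileum (382 CPM), while in iBAT at 10 °C replicate 3 is highest for epididymis (55.1 CPM).

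The sequences just before the starts of 3 genes are given because Ucp1 had a depot difference that shrank most among the thermogenic genes in the cold, while Zic1 and Hoxa10 carried differences that persisted in opposite directions. Each is the RefSeq sequence of the 250 bases before the RefSeq start on GRCm38.p6, printed in the direction of transcription: chr8:83290098-83290347 on the plus strand for Ucp1, chr9:91365769-91366018 on the minus strand for Zic1 and chr6:52240855-52241104 on the minus strand for Hoxa10. These starts need not match the GENCODE gene ends given with the genes, since the Zic1 window reaches into the GENCODE span of Zic1 and the Ucp1 window ends a few bases before the GENCODE start. Capitals mark matches to 5 short motifs searched on both strands.
Ucp1: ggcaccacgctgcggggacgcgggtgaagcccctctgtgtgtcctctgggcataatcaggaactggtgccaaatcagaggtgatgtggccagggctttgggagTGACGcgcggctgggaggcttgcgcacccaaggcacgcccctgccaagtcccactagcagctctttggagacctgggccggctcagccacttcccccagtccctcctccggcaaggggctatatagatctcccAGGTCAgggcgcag
Zic1: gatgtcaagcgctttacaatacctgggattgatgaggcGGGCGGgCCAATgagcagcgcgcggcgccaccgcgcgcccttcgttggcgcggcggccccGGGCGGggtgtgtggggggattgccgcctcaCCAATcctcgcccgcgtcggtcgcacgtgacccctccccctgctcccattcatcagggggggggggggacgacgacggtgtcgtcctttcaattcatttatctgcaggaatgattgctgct
Hoxa10: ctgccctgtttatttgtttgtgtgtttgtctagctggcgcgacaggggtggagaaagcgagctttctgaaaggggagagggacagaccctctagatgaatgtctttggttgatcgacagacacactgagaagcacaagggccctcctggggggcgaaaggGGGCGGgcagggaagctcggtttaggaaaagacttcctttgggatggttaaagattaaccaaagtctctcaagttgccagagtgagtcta
The Ucp1 stretch held the nuclear receptor motif AGGTCA 14 bases before the start and the cyclic AMP response motif TGACG 147 bases before it. AGGTCA occurred in 12.3% and TGACG in 21% of the same windows of 16176 genes. The Zic1 stretch held the CCAAT box at 205 and 121 bases and the GC box GGGCGG at 212 and 152 bases before the start, and the Hoxa10 stretch held GGGCGG at 90 bases. CCAAT occurred in 36.1% and GGGCGG in 45.0% of all windows, and the fifth motif, TATAA, in 20.3% of windows and in none of these 3. The G+C content was 64.8% for Ucp1, 66.0% for Zic1 and 51.6% for Hoxa10, against a median of 56.0% over all windows. A match is a string of letters and not a shown binding site.

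With a fold limit of 1.5, about as many genes separated the depots at 10 °C as at 22 °C. Of 13557 genes tested at 10 °C with edgeR's quasi-likelihood test, 6035 (44.5%) were called, at a Benjamini-Hochberg adjusted p below 0.05 and a fold change above 1.5. Of these, 2634 (19.4% of the tested genes) were higher in iBAT and 3401 (25.1%) were higher in ingSAT. At 22 °C, 6030 of 13636 genes (44.2%) were called, 2697 (19.8%) higher in iBAT and 3333 (24.4%) higher in ingSAT. By the adjusted p alone more genes passed at 10 °C, 8016 against 6909 at 22 °C. The 3 libraries of each depot did not overlap for 9204 of the tested genes (67.9%) at 10 °C and 8207 (60.2%) at 22 °C. Differences above 4-fold became fewer, at 1300 genes at 10 °C against 1807 at 22 °C, and those higher in iBAT went from 588 to 306. The split between directions depends on scaling: with library size in place of TMM, 1289 genes were higher in iBAT and 5649 in ingSAT at 10 °C, because the median log2 fold change over all genes moved from -0.05 to -0.47. Without ingSAT replicate 1 and iBAT replicate 3, which held most of the ileum and epididymis reads (a choice made after seeing the data), 2913 genes were higher in iBAT and 3170 in ingSAT.

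**Figure D2:**
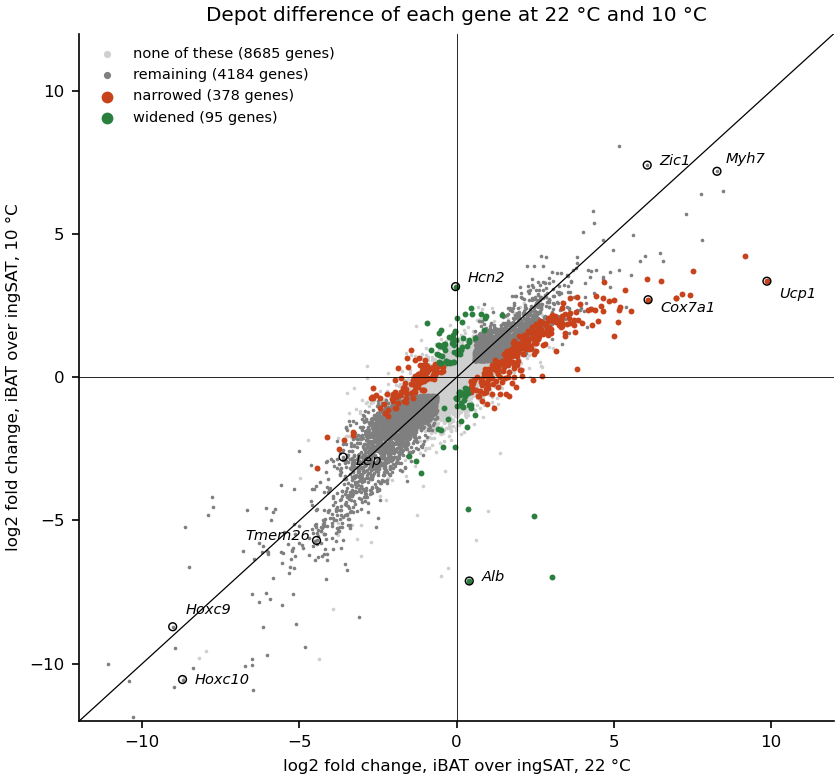
Depot difference (log2 fold change, iBAT over ingSAT) of 13342 genes at 22 °C (horizontal axis) and 10 °C (vertical axis), coloured by class, with the line of equal differences and 10 genes labelled. Ucp1 lies far below the line, at 9.87 at 22 °C and 3.36 at 10 °C, while Zic1 (6.06 and 7.41) and Hoxc9 (-9.03 and -8.71) lie near it.

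When all 12 libraries were fitted together over 13631 genes, 4495 depot differences were called in the same direction at both temperatures and are referred to as remaining: 2050 higher in iBAT (15% of the genes tested) and 2445 higher in ingSAT (17.9%). They made up 71.2% of the genes higher in iBAT at 22 °C and 74.4% of those higher in iBAT at 10 °C, and 73.2% and 74.4% of those higher in ingSAT. The test of the change itself, the depot by temperature interaction, called 484 genes (3.55%), 313 (2.3%) shifted toward ingSAT in the cold and 171 (1.25%) toward iBAT. The gap narrowed for 383 genes (2.81%), widened for 101 (0.741%) and switched direction with a call at each temperature for 19 (0.139%), a set that overlaps the first 2 classes. Of the narrowed genes, 203 still differed in the same direction at both temperatures. These counts rest on individual libraries more than the depot calls do. In ingSAT replicate 3 at 22 °C white adipocyte markers summed to 3203 CPM, against 1460 and 1860 CPM in the other libraries of its group. Its B cell sum was also the highest (340 against 59.2 and 134 CPM). Lowest were its sums for endothelium (394 against 1094 and 943 CPM) and for progenitors and fibroblasts (3127 against 6575 and 4947 CPM). The same held for fast muscle (1153 against 2828 and 2863 CPM). Without this library the interaction called 1044 genes toward iBAT and 1212 toward ingSAT. Without ingSAT replicate 3 at 10 °C it called 33 and 107.

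Narrowing was mostly a rise in ingSAT. For 262 narrowed genes the level had been higher in iBAT at 22 °C. Of these, 200 rose in ingSAT in the cold and none fell, with a median log2 change of 1.04, whereas 10 rose and 50 fell in iBAT, with a median of -0.07. A further 107 narrowed genes had been higher in ingSAT at 22 °C, and 65 of them fell in ingSAT while 30 rose in iBAT. Among the 262 and the 107 genes alike, the class itself requires that the depots moved unequally, so these counts describe which depot moved.

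Thermogenic genes were raised in ingSAT by the cold but stayed far below iBAT. Of 36 tested genes of the thermogenic and brown fat list, 34 were higher in iBAT at 10 °C and none was higher in ingSAT. The median log2 fold change was 2.13, against -0.05 over all genes, and had been 3.73 at 22 °C. The level in ingSAT was a median of 22.4% of that in iBAT at 10 °C and 7.44% at 22 °C. In the cold 26 genes of the list rose in ingSAT and none fell, 7 rose and 3 fell in iBAT, and the depot gap narrowed for 24. The median log2 cold change of the list was 1.74 in ingSAT and -0.02 in iBAT, against 0.02 and -0.02 over all genes. The share of all genes that passed the test of a cold change was not counted, here or for the lists below. In bulk tissue, fewer cells of a type and less RNA per cell cannot be told apart.

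Ucp1 (ENSMUSG00000031710, chromosome 8, 83290352 to 83298452, plus strand) measured 10385, 14730 and 11959 CPM in the iBAT libraries and 1007, 1403 and 1122 CPM in the ingSAT libraries at 10 °C. The groups did not overlap, and iBAT was 10.5-fold higher (log2 fold change 3.36 ± 0.20 SE, adjusted p = 4.39e-05). At 22 °C iBAT held 6128, 4629 and 9458 CPM and ingSAT 13.5, 5.94 and 2.17 CPM, a 935-fold difference. The interaction was -6.50 on the log2 scale (adjusted p = 0.000798), with a rise of 7.38 in ingSAT (adjusted p = 3.14e-05) and a difference of 0.87 in iBAT that did not pass the test (adjusted p = 0.270).

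Cidea, a lipid droplet protein of thermogenic adipocytes, measured 2547, 2808 and 2783 CPM in iBAT and 501, 508 and 455 CPM in ingSAT. Its gap went from 37.2-fold at 22 °C to 5.56-fold at 10 °C. Dio2, the deiodinase that activates thyroid hormone, measured 148, 181 and 156 CPM in iBAT and 20.7, 25.7 and 16.8 CPM in ingSAT, a 7.69-fold gap that had been 144-fold. Elovl3, a fatty acid elongase, rose in both depots, from a mean of 75.7 to 866 CPM in iBAT and from 0.631 to 123 CPM in ingSAT. Each of these 3 genes was remaining and narrowed, and their interactions passed the test whichever library was left out. Fabp3, a fatty acid binding protein of oxidative tissues, and Slc27a2, a fatty acid transporter and acyl-CoA synthetase, were also remaining and narrowed, with ingSAT cold changes of 4.46 and 3.22 on the log2 scale.

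**Figure D3:**
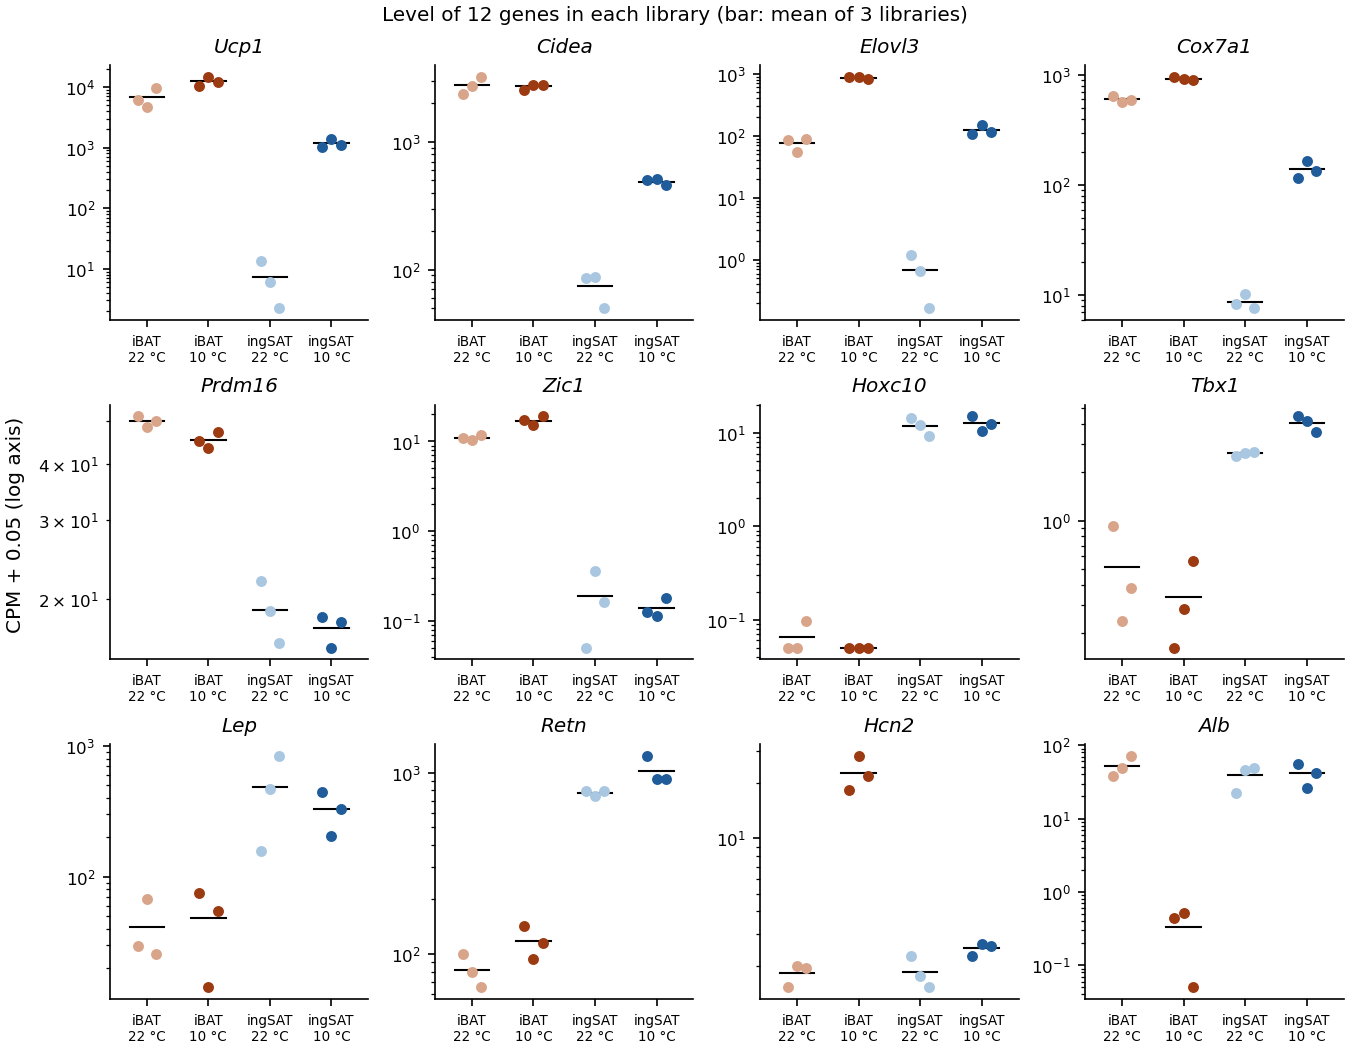
CPM of 12 genes (panels, log axis, 0.05 added) in each of the 12 libraries, 3 points per depot and temperature, with a bar at each group mean. Ucp1, Cidea, Elovl3 and Cox7a1 are higher in ingSAT at 10 °C than at 22 °C without reaching iBAT, Prdm16, Zic1, Hoxc10, Tbx1, Lep and Retn stay apart between depots at both temperatures, and Hcn2 and Alb part the depots at 10 °C.

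Regulators of the thermogenic program gave a mixed picture. Prdm16, a transcriptional coregulator that maintains brown and beige identity, measured 44.9, 43.4 and 47.1 CPM in iBAT and 18.2, 15.5 and 17.7 CPM in ingSAT at 10 °C. Its difference was 2.64-fold at both temperatures, and the interaction was -0.01 (adjusted p = 0.990). Ppargc1a, the coactivator that drives mitochondrial biogenesis, stood at 56.7, 62.5 and 82.6 CPM in iBAT and 21.4, 21.6 and 24.8 CPM in ingSAT. Its gap went from 11.1-fold to 2.98-fold, although the interaction (-1.90, adjusted p = 0.0219) was lost without any 1 of 5 libraries, iBAT replicate 1 or 2 or ingSAT replicate 3 at 10 °C and ingSAT replicate 1 or 2 at 22 °C (adjusted p from 0.0504 to 0.0643). Adrb3, the β3-adrenergic receptor, was 1 of 2 tested genes of the list that were not called, with 396, 573 and 504 CPM in iBAT and 664, 485 and 571 CPM in ingSAT (log2 fold change -0.25 ± 0.16 SE, adjusted p = 0.216). At 22 °C it had been lower in iBAT (-1.03, adjusted p = 0.00370). The other was Nrg4, a secreted factor, whose log2 fold change of 0.50 (adjusted p = 0.00959) fell short of 1.5-fold.

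Zic1 and Zic4 were higher in iBAT at both temperatures. Zic1 (ENSMUSG00000032368, chromosome 9, 91358058 to 91365810, minus strand), a zinc finger factor used as a marker of classical brown fat, measured 17.1, 15 and 19 CPM in iBAT and 0.0745, 0.0634 and 0.130 CPM in ingSAT at 10 °C, the latter from 4 counts in all. The difference was 7.41 ± 0.29 SE on the log2 scale (adjusted p = 3.06e-05), and ingSAT stood at 0.524% of iBAT in the cold and 1.30% at 22 °C. Its neighbour Zic4 had 2.53, 1.72 and 2.55 CPM in iBAT and no count in any ingSAT library, which makes it at least 34.2-fold higher in iBAT when 3 counts are taken as the floor over the group. The 2 genes overlap on opposite strands and the library kit did not keep strand, so reads in the overlap cannot be told apart. Without iBAT replicate 1 or 3 Zic4 fell below the expression filter.

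Other classical brown markers were less uniform. Of the 8 genes of that list 6 were higher in iBAT and 1 in ingSAT, with a median log2 fold change of 1.65. Lhx8, a LIM homeobox factor, measured 4.95, 6.03 and 5.17 CPM in iBAT and 3.28, 1.65 and 2.86 CPM in ingSAT (log2 fold change 1.02, adjusted p = 0.0174), and the call was lost without iBAT replicate 2 (adjusted p = 0.0538). At 22 °C the difference did not pass the test (log2 fold change -0.33, adjusted p = 0.253). Ebf3 measured 87.0 to 104 CPM in iBAT and 56.4 to 79.8 CPM in ingSAT and did not reach 1.5-fold, though it did without ingSAT replicate 1 (log2 fold change 0.66). Epsti1 was higher in ingSAT, with 18.8, 75.2 and 38.4 CPM against 1.89 to 3.99 CPM in iBAT. Its order over the ingSAT libraries was that of the B cell sum of 22.7, 662 and 430 CPM, and the part of lymphoid tissue was not tested. Hspb7, a small heat shock protein of muscle, was higher in iBAT, with 20.9, 12.0 and 6.70 CPM against 0.968, 0.127 and 1.04 CPM, and was lowest in ingSAT replicate 2, where skeletal muscle markers were also lowest.

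The Hox genes pointed mainly the other way. Of 25 tested Hox genes 13 were higher in ingSAT and 3 in iBAT at 10 °C, with a median log2 fold change of -1.09, and these 16 remained from 22 °C. None was narrowed or widened, 1 rose in ingSAT in the cold, and none passed the test of a cold change in iBAT. Over all genes 2.81% narrowed and 0.741% widened, so none in a list this short is near the share over all genes. Without ingSAT replicate 1 and iBAT replicate 3 at 10 °C, 10 Hox genes were higher in ingSAT. Hoxa10 measured 15.5, 10.8 and 12.6 CPM in ingSAT and had no count in any iBAT library at either temperature, which puts ingSAT at least 190-fold higher at 10 °C. Hoxc10 measured 15, 10.4 and 12.4 CPM in ingSAT and was at 0 in iBAT at 10 °C, at least 184-fold higher. Hoxc9 measured 15.3, 10.0 and 13.3 CPM in ingSAT against a single count over the 3 iBAT libraries, a ratio of 564 with a counting interval from 101 to 22287. The Hox genes higher in iBAT were Hoxa4, Hoxa5 and Hoxc4, of the part of the clusters expressed toward the head. Hoxa5 measured 25.6, 24.6 and 23.5 CPM in iBAT and 7.22, 6.15 and 7.61 CPM in ingSAT, and Hoxa4 9.34 to 12.53 CPM against 1.97 to 4.29 CPM. Both overlap the annotated span of Hoxa3, and Hoxc9 and Hoxc10 overlap that of Hoxc5.

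Among 31 tested factors of a wider patterning list, 9 were higher in iBAT and 12 in ingSAT at 10 °C, and 6 and 12 remained from 22 °C. With library size scaling the counts were 5 and 17. The median was -0.26, against -0.05 over all genes. Next to Zic1 and Zic4 at one end stood Tbx1 and Emx2 at the other, with log2 fold changes of -3.85 and -3.34. None of the 31 was narrowed or widened, which is again near the share over all genes.

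Markers of beige cells were higher in ingSAT at both temperatures. Of 9 tested genes 8 were higher in ingSAT and none in iBAT at 10 °C, with a median of -2.55, against 9 of 9 and a median of -2.34 at 22 °C. All 8 remained, and none of the 9 passed the test of a change in ingSAT between 22 °C and 10 °C. Tmem26, a membrane protein used to sort beige cells, measured 4.10, 4.63 and 2.93 CPM in ingSAT against 0.0562, 0.0783 and 0.0728 CPM in iBAT, where it rested on 3 counts (ratio 57.3, counting interval 19.6 to 278). Tbx1, a T-box factor, measured 4.39, 4.12 and 3.51 CPM against 0.113, 0.235 and 0.510 CPM. Tnfrsf9, which encodes CD137, was the gene not called, with 0.298, 2.28 and 1.76 CPM in ingSAT and 0.787, 0.470 and 0.656 CPM in iBAT. Its groups overlapped through ingSAT replicate 1, and without that library it was called (log2 fold change -1.64). Without ingSAT replicate 2 it fell below the expression filter. The order of Tnfrsf9 over the ingSAT libraries was that of the T cell sum of 14, 241 and 107 CPM, and the part of lymphoid tissue was not tested. The fatty acid transporter Slc27a1 was 1 of the abundant members, at 913, 696 and 696 CPM in ingSAT and 363, 471 and 388 CPM in iBAT.

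Most white fat and adipokine genes were higher in ingSAT at both temperatures. Of 23 tested, 16 were higher in ingSAT and none in iBAT at 10 °C, against 21 in ingSAT at 22 °C, with a median of -2.78 at 10 °C and -3.10 at 22 °C. In the cold 8 fell in ingSAT, where the median log2 cold change was -0.65, against 0.02 over all genes. Retn, which encodes the adipokine resistin, measured 1236, 923 and 917 CPM in ingSAT and 142, 94.0 and 116 CPM in iBAT, with an interaction of 0.12 (adjusted p = 0.828). Lep, which encodes leptin, varied more, at 446, 206 and 332 CPM in ingSAT and 75.5, 14.2 and 54.4 CPM in iBAT, and still did not overlap. Nnat, an imprinted gene of white adipocytes, fell in both depots in the cold, by 3.34 in ingSAT and by 2.18 in iBAT on the log2 scale, and kept a log2 fold change of -2.97. Adipoq, which encodes adiponectin, measured 3308, 2127 and 2442 CPM in ingSAT and 1177, 1127 and 1203 CPM in iBAT.

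**Figure D4:**
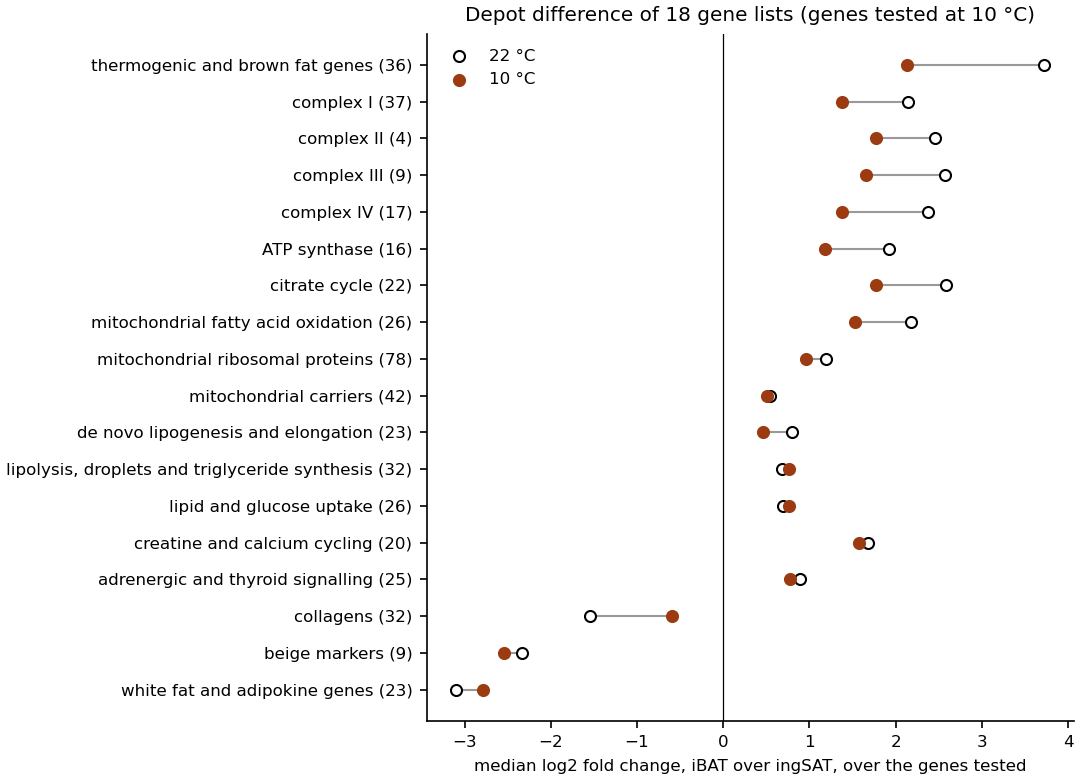
Median log2 fold change (iBAT over ingSAT) of 18 gene lists at 22 °C (open points) and 10 °C (filled points), with the number of genes tested at 10 °C in parentheses and a vertical line at 0. The thermogenic, respiratory chain, citrate cycle and fatty acid oxidation medians lie above 0 at both temperatures and closer to it at 10 °C (2.13 against 3.73 for the thermogenic list), while the collagen, beige and white fat medians lie below 0 at both.

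Most respiratory chain genes were higher in iBAT, and most rose in ingSAT in the cold. All 37 subunits of complex I, which takes electrons from NADH, were higher in iBAT at 10 °C (median log2 fold change 1.38, against 2.15 at 22 °C), and all 37 remained. With library size scaling 34 were higher in iBAT at 10 °C. In the cold 34 of the 37 rose in ingSAT and 1 rose in iBAT. The median log2 cold change was 0.92 in ingSAT and 0.21 in iBAT, against 0.02 and -0.02 over all genes. The median level in ingSAT was 37.5% of that in iBAT at 10 °C and 22.1% at 22 °C, and the gap narrowed for 15. Ndufs8 measured 472, 502 and 476 CPM in iBAT and 135, 132 and 126 CPM in ingSAT, with a cold rise of 1.08 in ingSAT and of 0.41 in iBAT. Ndufv1 had the largest gap of the complex, at 1074, 1532 and 1263 CPM against 353, 283 and 319 CPM.

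All 4 subunits of complex II and all 9 of complex III were higher in iBAT, with medians of 1.77 and 1.65, and the gap narrowed for 2 and 8 of them. Uqcrc1, a core subunit of complex III, measured 1620, 2249 and 1863 CPM in iBAT and 473, 421 and 439 CPM in ingSAT. Of 16 ATP synthase genes 11 were higher in iBAT (median 1.18), led by the catalytic-sector subunit Atp5a1 at 5249, 7586 and 6100 CPM against 1762, 1405 and 1457 CPM, and 3 narrowed. The single gene of that list higher in ingSAT was Atpif1, the inhibitor of the enzyme, at 27.5, 23.2 and 24 CPM against 12.4, 10.4 and 13.2 CPM, a difference of -1.08 that had been -0.95 at 22 °C. With library size scaling 9 ATP synthase genes were higher in iBAT and 3 in ingSAT (median 0.77). In the cold 11 of the 16 rose in ingSAT. Of 78 mitochondrial ribosomal proteins 63 were higher in iBAT and none in ingSAT (median 0.96), but 34 and 1 with library size scaling, and 8 narrowed.

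Complex IV, cytochrome c oxidase, has tissue-specific isoforms of some subunits. Of 17 tested genes 15 were higher in iBAT, and Cox6b2 and Cox7c were not called. In the cold 13 of the 17 rose in ingSAT, and the gap narrowed for 8. The heart and muscle type isoform Cox7a1 measured 961, 917 and 904 CPM in iBAT and 116, 165 and 134 CPM in ingSAT, while its ubiquitous partner Cox7a2 measured 863, 642 and 755 CPM and 346, 381 and 360 CPM. Per kilobase of exon, Cox7a1 made up 66.3%, 71.6% and 67.9% of the pair in iBAT (68.6% ± 2.74 SD, n = 3) and 37.1%, 43.3% and 39.7% in ingSAT (40.1% ± 3.09 SD, n = 3). The shares did not overlap, and the exact 2-sided permutation test gave p = 0.1, the smallest that 3 against 3 libraries allow. At 22 °C the shares had been 64.0% in iBAT and 10.3% in ingSAT. In ingSAT Cox7a1 rose by 3.99 on the log2 scale and Cox7a2 by 1.32.

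The Cox8b share in ingSAT came closer to that in iBAT. Cox8b made up 74.2% ± 1.19 (SD, n = 3) of the Cox8b and Cox8a pair in iBAT and 66.3% ± 3.68 in ingSAT at 10 °C, against 75.1% and 33.9% at 22 °C, with the same smallest p of 0.1 by the exact permutation test at both temperatures. Its interaction of -2.48 (adjusted p = 3.53e-05) was, with that of Cox7a1 at -3.38 (adjusted p = 2.51e-05), called whichever library was left out. The muscle isoform Cox6a2 made up 1.45% of its pair in iBAT and 0.627% in ingSAT, with overlapping shares (p = 0.3, exact permutation test). Its level of 31.3, 17 and 11.8 CPM in iBAT and 2.61, 0.127 and 5.46 CPM in ingSAT was lowest in ingSAT replicate 2, which also had the lowest skeletal muscle sum, and its call was lost without iBAT replicate 1 (adjusted p = 0.0834) or 2 (adjusted p = 0.0551). In the fourth pair, Cox4i2 made up 0.344% beside Cox4i1 in iBAT and 0.357% in ingSAT at 10 °C, with overlapping shares (p = 0.6, exact permutation test), and 0.324% and 0.421% at 22 °C, where they did not overlap (p = 0.1). The plot of isoform shares covers the Cox7a1, Cox8b and Cox6a2 pairs.

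**Figure D5:**
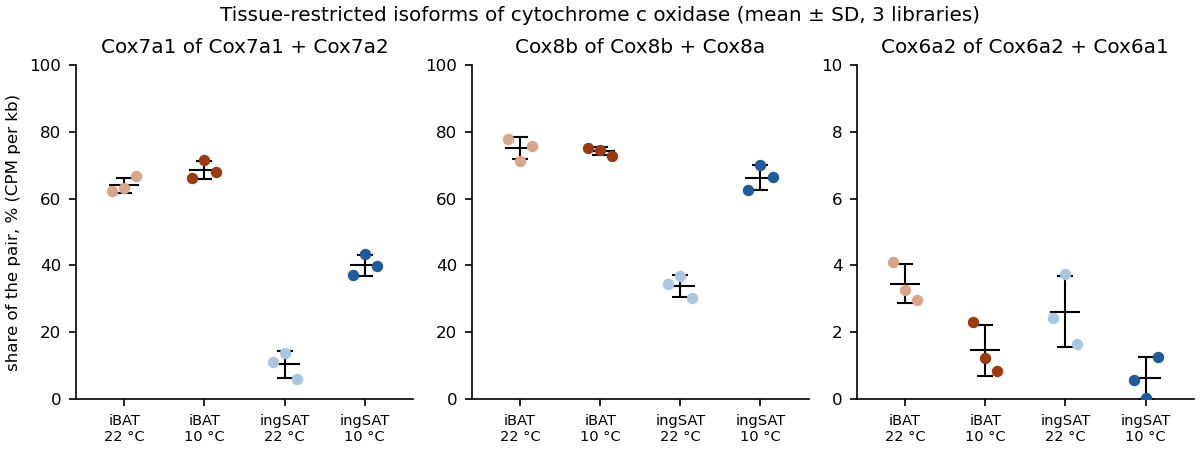
Share (percent, per kilobase of exon) of the tissue-specific isoform in 3 cytochrome c oxidase pairs (panels), 1 point per library with mean and SD of 3 libraries, for both depots at 22 °C and 10 °C; the Cox6a2 panel has its own axis range. The Cox7a1 and Cox8b shares of ingSAT rise from 10.3% to 40.1% and from 33.9% to 66.3%, while those of iBAT stay between 64.0% and 75.1% as group means.

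Fuel oxidation genes were also higher in iBAT. Of 22 citrate cycle genes 21 were higher in iBAT and Pcx, which encodes pyruvate carboxylase, was not called. The median was 1.77, against 2.59 at 22 °C, and 18 rose in ingSAT while none rose in iBAT. Suclg1, a succinyl-CoA ligase subunit, measured 1159, 1417 and 1380 CPM in iBAT and 239, 249 and 243 CPM in ingSAT, where it had risen by 1.22. Of 26 genes of mitochondrial fatty acid oxidation 24 were higher in iBAT (median 1.53, against 2.18), among them Acadvl, the very long-chain acyl-CoA dehydrogenase, at 1511, 2382 and 1843 CPM against 366, 324 and 332 CPM. Cpt1c was higher in ingSAT, at 5.45 to 7.67 CPM against 2.55 to 3.09 CPM, and Cpt1a was not called. Of 42 mitochondrial carriers 18 were higher in iBAT and 8 in ingSAT (median 0.51), or 14 and 11 with library size scaling (median 0.09). The dicarboxylate carrier Slc25a10 had one of the larger gaps toward ingSAT, at 466, 301 and 348 CPM against 86.2, 58.9 and 67.0 CPM.

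Lipid synthesis and handling had smaller median differences. Of 23 genes of lipogenesis and elongation 10 (43.5%) were higher in iBAT and 4 (17.4%) in ingSAT (median 0.46), against 19.4% and 25.1% of all tested genes. With library size scaling the counts were 9 and 5 and the median was 0.06. In the cold 11 of the 23 rose in ingSAT and 8 in iBAT. The median log2 cold change was 1.07 in ingSAT and 0.98 in iBAT, against 0.02 and -0.02 over all genes. Elongases split, with Elovl3 and Elovl4 higher in iBAT (log2 fold changes 2.78 and 2.21) and Elovl7 higher in ingSAT (-2.55), although Elovl7 was below the expression filter without any 1 ingSAT library. Of 32 genes of lipolysis, droplets and triglyceride synthesis 17 (53.1%) were higher in iBAT and 3 (9.4%) in ingSAT (median 0.76), or 12 and 6 with library size scaling. Gpat3, a glycerol-3-phosphate acyltransferase, measured 92.8, 60.4 and 66.7 CPM in ingSAT and 10.5, 12.3 and 10.9 CPM in iBAT, where it fell by 1.81 in the cold. Plin4, a droplet coat protein, was higher in ingSAT (log2 fold change -0.95), but was not called without ingSAT replicate 1 and iBAT replicate 3 (adjusted p = 0.0592). Of 26 genes of lipid and glucose uptake 13 (50%) were higher in iBAT and 3 (11.5%) in ingSAT (median 0.77), or 11 and 6 with library size scaling (median 0.35).

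In adrenergic and thyroid signalling 16 of 25 genes (64%) were higher in iBAT and 2 (8%) in ingSAT (median 0.77), against 19.4% and 25.1% of all tested genes. With library size scaling the counts were 9 and 3. Adenylyl cyclases, the enzymes that make cyclic AMP, lay on both sides. Adcy3 measured 412, 684 and 440 CPM in iBAT and 50.9, 62.1 and 46.4 CPM in ingSAT (log2 fold change 3.23 ± 0.23 SE, adjusted p = 6.45e-05). Adcy5 measured 118, 99.5 and 99.7 CPM in ingSAT and 13.3, 19.4 and 8.45 CPM in iBAT (-2.98 ± 0.26 SE, adjusted p = 0.000135). Both were called in the same direction at 22 °C, with log2 fold changes of 2.39 and -3.45, and neither interaction passed the test, although that of Adcy3 did without iBAT replicate 3 at 22 °C (1.46, adjusted p = 0.0377). Creb1, a transcription factor that binds cyclic AMP response elements, was higher in ingSAT (log2 fold change -0.65), and fell short of the fold limit without iBAT replicate 2 (-0.51).

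Of 21 secreted factors 8 (38.1%) were higher in iBAT and 3 (14.3%) in ingSAT, against 19.4% and 25.1% of all tested genes. Leaving out 1 library gave 6 to 9 and 2 to 3, and library size scaling gave 7 and 4. Igf1, insulin-like growth factor 1, measured 327, 297 and 342 CPM in ingSAT and 53.0, 37.1 and 44.3 CPM in iBAT, with no cold change in either depot passing the test. Igfbp5, which binds it, was also higher in ingSAT (log2 fold change -1.07). Lgr6, a receptor for R-spondins placed in this list, measured 108, 140 and 132 CPM in iBAT and 3.2, 4.88 and 5.14 CPM in ingSAT (4.80 ± 0.20 SE), and rose by 3.19 in ingSAT in the cold. In creatine and calcium cycling 10 of 20 genes (50%) were higher in iBAT and 5 (25%) in ingSAT, the latter near the 25.1% of all tested genes. The count in ingSAT was 2 without iBAT replicate 2 and 3 without iBAT replicate 1. Alpl, an alkaline phosphatase, measured 56.1, 89.5 and 66.6 CPM in iBAT against 4.10, 4.63 and 2.34 CPM. Ckmt2, the mitochondrial creatine kinase of striated muscle, measured 51.8, 50.3 and 34.2 CPM in iBAT against 5.59, 0.127 and 5.14 CPM, and was again lowest in ingSAT replicate 2.

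The tissue around the adipocytes also differed. All 10 macrophage markers were higher in ingSAT (median -1.54), among them Clec10a at 58.2, 39.9 and 41.2 CPM against 8.67 to 11.4 CPM. Of 10 progenitor and fibroblast markers 8 were higher in ingSAT (median -1.51), including Dpp4, a marker of early adipose progenitors, at 82.2, 73.4 and 61.7 CPM against 5.90 to 9.96 CPM. All 9 tested B cell and all 10 T cell markers were higher in ingSAT, and ingSAT replicate 1 was the lowest of its group in both sums. Cd3d, a T cell receptor chain, stood at 0.521, 17.9 and 7.09 CPM in ingSAT and 0.0783 to 0.146 CPM in iBAT. Of 10 endothelial markers 9 were higher in iBAT at 10 °C (median 1.04), against 2 at 22 °C, where leaving out 1 library gave 0 to 4. With library size scaling 5 were higher in iBAT at 10 °C. Kdr, the main VEGF receptor, measured 249, 427 and 325 CPM in iBAT and 120, 100 and 99.1 CPM in ingSAT, and its interaction of 0.58 did not pass the test (adjusted p = 0.498). Without ingSAT replicate 3 at 22 °C the interaction of Kdr was 0.95 (adjusted p = 0.0285), and that of Flt1, another VEGF receptor, was 0.99 (adjusted p = 0.0197).

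Collagens had a smaller median difference in the cold. At 22 °C 18 of 35 tested were higher in ingSAT and 4 in iBAT (median -1.54), and at 10 °C 15 of 32 were higher in ingSAT and 5 in iBAT (median -0.60). In the cold 20 fell in ingSAT and 2 in iBAT. The median log2 cold change was -1.43 in ingSAT and -0.30 in iBAT, against 0.02 and -0.02 over all genes. The interaction called 1 collagen as narrowed, and which ones passed depended on the libraries used. Without ingSAT replicate 3 at 22 °C the interaction of Col3a1 passed (1.61, adjusted p = 0.0188), and that of Col27a1 passed without ingSAT replicate 1 at 10 °C (-1.04, adjusted p = 0.0487) or at 22 °C (-1.11, adjusted p = 0.0461). Col3a1, a fibrillar collagen, measured 2401, 1257 and 1694 CPM in ingSAT and 651, 826 and 536 CPM in iBAT at 10 °C, and 10192, 6706 and 2055 CPM in ingSAT at 22 °C. The lowest of the latter was replicate 3, the library that stood apart. Without ingSAT replicate 1 and iBAT replicate 3 at 10 °C, 9 collagens were higher in ingSAT.

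A smaller set of differences opened in the cold. Of 51 widened genes higher in iBAT at 10 °C, 38 rose in iBAT, and 9 fell and 3 rose in ingSAT. Hcn2, a cation channel opened by hyperpolarization and cyclic AMP, measured 18.2, 28.2 and 21.8 CPM in iBAT against 2.23, 2.6 and 2.54 CPM in ingSAT, and 1.5 to 1.96 CPM and 1.49 to 2.24 CPM at 22 °C. Its difference went from -0.03 to 3.17 (interaction adjusted p = 0.000723). Bmp8b, a secreted factor of brown fat, measured 9.96, 23.1 and 13.3 CPM in iBAT against 0.819, 1.84 and 0.585 CPM, with all libraries between 0.247 and 1.14 CPM at 22 °C, and its interaction was lost without iBAT replicate 2 at 22 °C (adjusted p = 0.0571) or ingSAT replicate 3 at 10 °C (adjusted p = 0.0564). Rspo4, an R-spondin and thus of the ligand family of Lgr6, measured 6.36, 5.71 and 7.07 CPM in iBAT against 0 to 0.0651 CPM in ingSAT, and its interaction was lost without any 1 of 10 libraries (adjusted p from 0.0560 to 0.220). Abcc8, a subunit of ATP-sensitive potassium channels, measured 7.48, 10.7 and 5.46 CPM against 0.0651 to 0.444 CPM, and its interaction was lost without any 1 of 11 libraries (adjusted p from 0.0514 to 0.231). The libraries without which these calls held were iBAT replicate 1 and ingSAT replicate 3 at 22 °C for Rspo4, and ingSAT replicate 3 at 22 °C for Abcc8. Mlph, a melanosome transport protein, measured 7.76, 5.40 and 7.14 CPM against 1.33 to 2.02 CPM.

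The receptor gene Adgrg2 was 1 of the 19 that changed sides. It measured 34.1, 25.6 and 32.3 CPM in iBAT and 16.7, 14.3 and 15.7 CPM in ingSAT at 10 °C, but 8.13, 7.34 and 5.05 CPM in iBAT and 19.2, 16.2 and 19.8 CPM in ingSAT at 22 °C. The change was a rise of 2.18 in iBAT (adjusted p = 0.000112). In the opposite direction went a group of genes of hepatocytes, and whether their reads came from cells of the fat depots was not tested. Alb, which encodes albumin, measured 0.394, 0.470 and 0 CPM in iBAT at 10 °C against 38.1, 48.6 and 71.5 CPM at 22 °C, and 26.4 to 55.2 CPM in ingSAT at 10 °C and 22.1 to 49.5 CPM at 22 °C. Serpina1e, Cyp3a11, Fabp1, Mup7 and Cps1 were likewise at 0 to 0.0783 CPM in every iBAT library at 10 °C and at 1.41 to 8.96 CPM in every iBAT library at 22 °C. Mup7 and Serpina1e belong to families of near-identical copies among which reads can be split. Cps1 and Fabp1 are also genes of the small intestine, and Cps1 stood at 11.4 CPM in ingSAT replicate 1, which held the ileum genes.

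The largest differences by size were in part set by such libraries. Among the 10 largest toward iBAT were the epididymal genes Gpx5, Adam7, Crisp1, Lcn5, Lcn9 and Defb20, which were at 0 in ingSAT and highest in iBAT replicate 3, as with Adam7 at 1.35, 1.10 and 13.5 CPM, which fell below the expression filter without that library. Lcn9 was not called without any 1 ingSAT library (adjusted p from 0.0614 to 0.0754). The slow muscle gene Myh7, a myosin heavy chain, measured 186, 183 and 15.7 CPM in iBAT and 0.0745, 0.0634 and 2.34 CPM in ingSAT, and 6 slow muscle genes summed to 433, 323 and 37.7 CPM in iBAT. Of 11 tested fast muscle markers 3 were higher in iBAT, and 11 without ingSAT replicate 2. Among the 10 largest toward ingSAT were Reg3b, Reg3g, Defa24, Fabp6, Zg16, Fcgbp and Fabp2, genes of the intestinal epithelium, and Reg3b measured 92.3, 1.71 and 2.08 CPM. Of the others of that set, Hoxa10 and Hoxc10 did not vary in this way, and Apol7c measured 0.521, 18.7 and 7.48 CPM in ingSAT, the order of the B cell sum. The calls of Reg3b, Reg3g, Defa24, Fabp6, Zg16 and Fabp2 were lost without any 1 iBAT library, with adjusted p from 0.0617 for Fabp6 to 0.0837 for Reg3b, and that of Fcgbp without iBAT replicate 2 or 3 (adjusted p = 0.0533 and 0.0649). All 5 tested epithelial markers, such as Epcam at 23, 0.634 and 1.37 CPM, followed ingSAT replicate 1, and 1 of the 5 was called without it or without any 1 iBAT library.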

How the data were processed

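Bulk mRNA of mouse iBAT and ingSAT was sequenced, with a library kit (NEBNext Ultra by the methods) that does not keep strand. The authors aligned reads to mm10 and deposited raw counts per gene without scaling. Their methods name STAR 2.6.0c and HTSeq 0.9.1, whereas the submitters' processing notes name STAR 2.5.3a, HTSeq 0.6p1 and Picard 1.141. The labels' treatment field names a single temperature for every sample, so depot and condition came from the sample titles and the temperatures from the study's methods. Gene IDs were paired with symbols and positions from GENCODE M21 (GRCm38), which matched 21583 of 21647, and sequences came from RefSeq.

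Counts were fitted here with edgeR 4.0.16 in R 4.3.3 (TMM scaling, average log2 CPM above 0, quasi-likelihood test, 2-sided, Benjamini-Hochberg adjustment over all tested genes). A call needed an adjusted p below 0.05 and a fold change above 1.5, and an interaction the adjusted p alone. The depot differences were fitted on 6 libraries per temperature, and the interaction, the cold changes and the classes on 12. Standard errors are the log2 fold change divided by the square root of F. CPM in the text are TMM-scaled over the 12 libraries, replicate numbers are those of the titles, and values listed for a group follow replicates 1 to 3. No 2 libraries were identical. Reads carry no molecular identifiers, so counting intervals cover counting error only. Scripts were tested on simulated counts.

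The compared libraries, gene lists and named genes were chosen with earlier results of these data known. Named were a fixed set of adipose genes and the 10 largest differences each way with groups that did not overlap. Up to 2 genes per list and direction, the 6 largest interactions each way and genes among the 6 largest remaining differences each way were added. The 13 ileum, 6 epididymis and 6 slow muscle genes were chosen after values were seen. So were a few genes named for their count (Nrg4, Hoxc4, Pcx, Cpt1a, Cox6b2, Cox7c). Spans of Elovl3, Prdm16, Cox6a2, Nnat, Acadvl, Adcy3, Fabp3, Bmp8b, Plin4, Uqcrc2, Atp5a1 and Myh7 overlap another gene, so their reads can include that gene's. The alternatives were other scalings, filters and tests (DESeq2 1.42.0, edgeR's exact test), a replicate block and leaving out libraries.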

Additional observations from a re-analysis of the deposited data

Results flagged for a closer look

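For 27 named genes the depot difference at 10 °C differed from that at 22 °C by the interaction term of edgeR's quasi-likelihood test (adjusted p below 0.05). The values that follow are log2 fold changes of iBAT over ingSAT at 10 °C minus the same at 22 °C, each from 3 libraries per depot and temperature. Negative values mark a shift toward ingSAT in the cold.

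Among thermogenic genes the interaction was -6.50 for Ucp1, -2.74 for Cidea, -4.27 for Dio2, -4.19 for Elovl3, -1.90 for Ppargc1a, -3.81 for Slc27a2 and -4.20 for Fabp3. For the cytochrome c oxidase isoforms it was -3.38 for Cox7a1, -2.48 for Cox8b and -0.97 for Cox6a1. For other mitochondrial genes it was -0.67 for Ndufs8, -0.72 for Sdhb, -0.84 for Uqcrc2, -0.95 for Suclg1 and -0.67 for Mrpl34. The last 5 did not hold without every single library: Sdhb was lost without any 1 of 10, Uqcrc2 of 9, Ndufs8 and Mrpl34 of 7. Suclg1 was lost without ingSAT replicate 3 at 10 °C (adjusted p = 0.0544). The highest adjusted p of these 5 was 0.0997, reached by Sdhb and Uqcrc2. Of the genes named before them, Ppargc1a was also lost, without any 1 of 5 libraries (adjusted p from 0.0504 to 0.0643).

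Toward iBAT the interaction was 6.44 for Rspo4, 4.30 for Bmp8b, 3.56 for Abcc8, 3.20 for Hcn2, 2.84 for Mlph and 2.41 for Adgrg2. The last 3 held whichever library was left out.

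Genes of hepatocytes had interactions of -10.05 for Cps1, -9.85 for Fabp1, -9.76 for Cyp3a11, -8.42 for Mup7, -7.77 for Serpina1e and -7.53 for Alb. Those of Fabp1 and Cyp3a11 were fitted against iBAT libraries at 0 and those of the others against 0 to 0.470 CPM, so their size depends on the prior count of the fit. The Alb interaction held whichever library was left out, that of Serpina1e was lost without ingSAT replicate 2 at 10 °C (adjusted p = 0.106), and those of Cps1 and Cyp3a11 were lost without any 1 of 8 libraries. Fabp1, Cyp3a11 and Mup7 fell below the expression filter without some libraries. Groups of 3 are too small for the search for single outlying libraries, so none was run.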

How the results depend on the processing

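No named gene changed direction under any alternative run, while the split of calls and the counts of changed gaps did depend on them. With library size scaling 1289 genes were higher in iBAT and 5649 in ingSAT at 10 °C, 1055 and 3859 remained in the same direction, and 35 switched, because the median of all genes moved from -0.05 to -0.47 at 10 °C and from -0.03 to -0.31 at 22 °C. DESeq2 called 498 interactions toward iBAT and 665 toward ingSAT, and the unadjusted p called 1372 and 1599; the cause of the DESeq2 difference was not tested. Between same-numbered libraries of the depots, correlations of deviations ran from -0.27 to 0.0086. With 3 pools per group these cannot show whether same-numbered pools held the same mice. The main fits treated the libraries as unpaired. A replicate block left 2565 and 3240 depot calls at 10 °C and 2552 and 3077 at 22 °C, and 30 interactions toward iBAT and 66 toward ingSAT, with 76 narrowed and 20 widened genes. With each library left out in turn, there were 2473 to 2956 genes higher in iBAT and 2789 to 3423 in ingSAT at 10 °C, 2445 to 2975 and 2876 to 3337 at 22 °C, 1899 to 2088 and 2241 to 2450 remaining, 33 to 1044 and 107 to 1212 interactions toward iBAT and ingSAT, 111 to 1586 narrowed, 28 to 670 widened and 10 to 58 switched. The highest interaction counts came without ingSAT replicate 3 at 22 °C and the lowest without ingSAT replicate 3 at 10 °C. RLE scaling, filterByExpr, no filter beyond 1 count, edgeR's exact test, the fit of 12 libraries and the removal of ingSAT replicate 1 with iBAT replicate 3, an alternative added after seeing the data, each kept the counts over all genes that they recomputed within 1.5 times. Some counts within lists did move by more than 1.5 times when both libraries were removed. Those higher in ingSAT went from 15 to 9 collagens, from 5 to 1 epithelial markers and from 3 to 1 lipolysis, droplet and triglyceride genes. Those higher in iBAT went from 3 to 5 smooth muscle and pericyte markers, from 0 to 1 white fat genes and from 0 to 1 Schwann cell markers. Smaller moves included Hox genes higher in ingSAT, from 13 to 10, and mitochondrial carriers higher in iBAT, from 18 to 22. Of 248 results for named genes, DESeq2 kept 231, gained 7 and lost 10, and the block kept 235, gained 1 and lost 12. With 3 pools per group, p-values measure the spread between pools, and genes with a handful of counts in 1 depot have imprecise folds. What share of each library was muscle, lymph node, ileum, epididymis or liver is not known.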

Other observations

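Supporting cells other than those above also differed at 10 °C. Of 7 smooth muscle and pericyte markers 3 were higher in iBAT and none in ingSAT (median log2 fold change 0.75), or 5 without ingSAT replicate 1 and 2 without iBAT replicate 2 or 3 or ingSAT replicate 2 or 3. With library size scaling 1 was higher in iBAT (median 0.32). Rgs5, a regulator of G protein signalling in pericytes, measured 623, 548 and 581 CPM in iBAT and 264, 197 and 213 CPM in ingSAT, with a log2 fold change of 1.35 at 10 °C and 1.31 at 22 °C. Notch3, a receptor of mural cells, measured 63.2, 78.3 and 65.3 CPM against 45.3, 34.1 and 36.8 CPM. Lrrn4, the 1 mesothelial marker tested, was higher in iBAT, at 5.06, 10.0 and 8.96 CPM against 3.65, 2.98 and 3.32 CPM. Galr1, a receptor for the neuropeptide galanin, measured 1.18, 2.97 and 2.26 CPM in iBAT and 0.0745, 0 and 0 CPM in ingSAT, a single count over the 3 ingSAT libraries. None of 5 red cell genes was called, and Prx, the 1 of 6 Schwann cell markers called, was no longer called without iBAT replicate 3 (adjusted p = 0.0678) or without ingSAT replicate 1 (adjusted p = 0.0514) or 3 (adjusted p = 0.0527).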
